A study of Mus musculus with 6 samples.

Results

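The FHL, CSRP and PDLIM genes encode LIM-domain proteins that are attached to the actin cytoskeleton. The members were taken by symbol and were Fhl1, Fhl2, Fhl3, Csrp1, Csrp2, Pdlim1, Pdlim4, Pdlim5 and Pdlim7. All 9 were found by Ensembl identifier among the 42450 genes of the deposited table, and all 9 passed the filter on low counts, with 18905 genes tested in all. Total RNA was sequenced from E14tg2a.4 cells, a male line of mouse embryonic stem cells, as 3 libraries from the parental wild-type cells (WT) and 3 from the gene-trap derivative CG0630, which carries a heterozygous truncation of Srrm2 (Srrm2+/-). The cells of both genotypes were kept on gelatin in medium with serum and LIF and were moved to serum-free medium with LIF before collection. The labels give 24 to 72 h in serum-free medium, without a time for each library. The Srrm2+/- cells are a single gene-trap line. Per the study's methods they were frozen at lower passage numbers than the WT cells, so genotype, line and passage cannot be told apart.

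A LIM domain is a pair of zinc fingers that binds other proteins rather than DNA. FHL proteins consist almost entirely of LIM domains and move between focal adhesions, where integrins are tied to actin, and the nucleus, where they act as co-regulators of transcription. CSRP proteins hold LIM domains next to glycine-rich stretches and bind alpha-actinin and zyxin along actin bundles. PDLIM proteins carry a PDZ domain that binds alpha-actinin and LIM domains that bind kinases and other partners. Several of these genes are known for high levels in smooth, skeletal and heart muscle, and Fhl2 and Csrp1 are known targets of the serum response factor (SRF), which binds the CArG box with its MRTF coactivators when actin is polymerised.

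Promoter sequences are shown for Fhl2 and Fhl1, the members with a match to the CArG box, and for Fhl3 as the FHL gene without one. They are RefSeq sequences on GRCm38.p6, read 5′ to 3′ on the strand of the gene, and they were searched on both strands from 250 bases before to 50 bases after each annotated start. Capitals mark the CArG box in Fhl2 and Fhl1 and the GC box, GGGCGG, in Fhl3. The first Fhl2 stretch and the Fhl1 stretch are limited to the motif with 10 bases on each side. The first lies within an annotated exon of a longer Fhl2 transcript, and the second Fhl2 stretch overlaps no annotated exon and lies directly before an internal start, with its motif in an intron of longer transcripts.
Fhl2, chr1:43196838-43196867, minus strand: catttagagaCCAAAAAAGGcttgcaggag
Fhl2, chr1:43163962-43164211, minus strand: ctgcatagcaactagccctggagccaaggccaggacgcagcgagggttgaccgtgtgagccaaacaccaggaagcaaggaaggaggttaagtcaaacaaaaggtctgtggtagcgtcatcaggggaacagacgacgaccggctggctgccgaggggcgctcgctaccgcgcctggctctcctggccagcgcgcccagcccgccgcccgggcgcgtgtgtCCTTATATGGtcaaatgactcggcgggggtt
Fhl1, chrX:56779571-56779600, plus strand: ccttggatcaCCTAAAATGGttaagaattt
Fhl3, chr4:124700449-124700698, plus strand: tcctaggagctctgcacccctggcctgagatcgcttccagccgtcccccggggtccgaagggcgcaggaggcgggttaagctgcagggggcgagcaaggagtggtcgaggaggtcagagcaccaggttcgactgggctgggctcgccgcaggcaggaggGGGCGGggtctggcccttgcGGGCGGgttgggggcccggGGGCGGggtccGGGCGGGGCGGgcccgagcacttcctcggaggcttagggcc

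Library totals ran from 54151433 to 58499765 estimated counts in WT and from 61022915 to 69933421 in Srrm2+/-. Srrm2, the trapped gene, averaged 95.7 ± 3.94 for WT and 59.3 ± 3.02 for Srrm2+/- libraries in CPM, the count scaled to a common library size (SD, n = 3 each), and its log2 change was -0.69 (edgeR adjusted p 2.38e-05, SE 0.05). All 8 embryonic stem cell markers examined were present. Their summed level was 4333 to 4552 CPM in WT and 3526 to 3677 CPM in Srrm2+/- libraries, and 7 of the 8 were called lower.

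Of the 9 members, 6 rose in Srrm2+/- cells, 1 fell and 2 did not pass the test. The test was edgeR's quasi-likelihood test, with a call at a Benjamini-Hochberg adjusted p under 0.05 over all tested genes, of which 25.3% were called, 13.6% higher and 11.7% lower. The rises of Fhl2, Pdlim7, Csrp1 and Fhl3 exceeded 1 on the log2 scale, a size reached by 4.30% of all tested genes upward and by 1.80% downward. Fhl1 and Pdlim5 rose by about 0.34 on that scale, and Pdlim4 was the member that fell. The groups did not overlap for 8 of the 9 members, all but Csrp2, against 41.4% of all tested genes (21.4% higher and 20.0% lower). Over the members the median log2 fold change was 0.34, compared with -0.00254 over all tested genes. The members were chosen with earlier results of these data known, so these comparisons are a description and no test of the members together. In these bulk libraries a change in the number of expressing cells and a change in RNA per cell cannot be told apart.

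**Figure D1:**
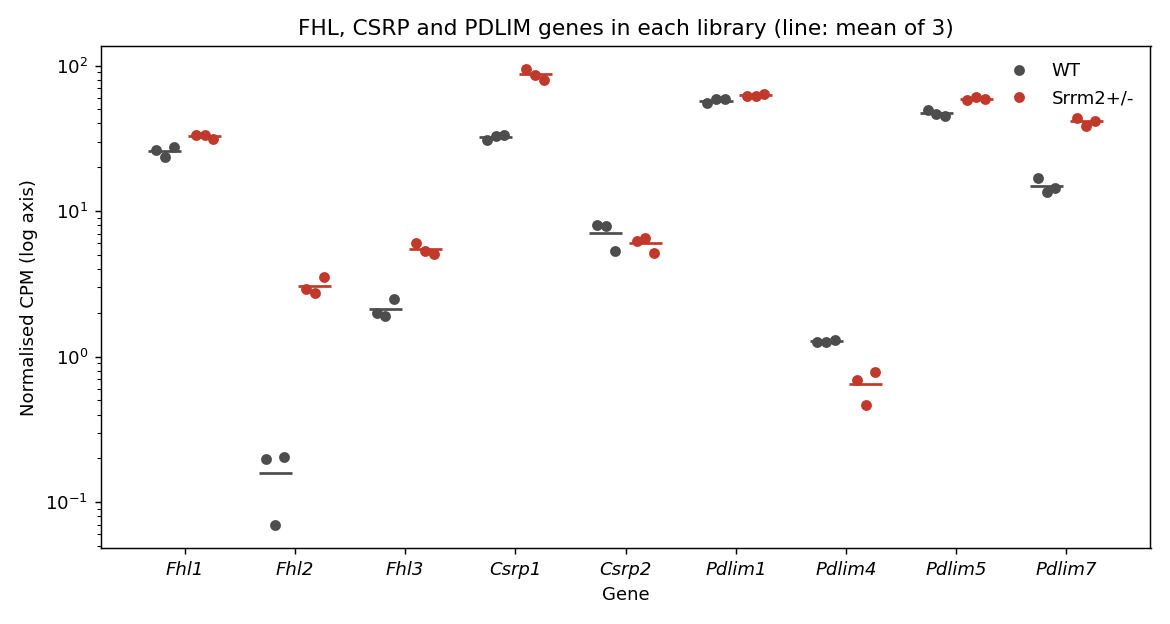
Normalised CPM on a log axis for each member in each of the 3 WT (grey) and 3 Srrm2+/- (red) libraries, with a line at the mean of each group. Fhl2 moves from 0.0692 to 0.205 CPM in WT to 2.76 to 3.55 CPM in Srrm2+/-, whereas the points of Csrp2 overlap.

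Among the FHL genes, Fhl2 had the largest change of the 9 members. Fhl2 (ENSMUSG00000008136, chromosome 1, 43123074 to 43196984, minus strand, GRCm38) encodes a LIM-only co-regulator that binds integrins and transcription factors. It was at 0.198, 0.0692 and 0.205 CPM in the WT libraries and at 2.93, 2.76 and 3.55 CPM in the Srrm2+/- libraries. Every Srrm2+/- library lay far above every WT library. The estimated counts behind these levels were 11, 4 and 11 for WT against 203, 190 and 219 for Srrm2+/-, so the size of the fold rests on the few WT counts. The log2 fold change was 4.28 (edgeR adjusted p 2.12e-05, SE 0.31), or 19.4-fold, and only 0.0899% of the tested genes had a larger rise. Gm8210, a processed pseudogene on the opposite strand inside Fhl2, held 5869 to 8362 counts per library, with a log2 fold change of 0.08 (edgeR adjusted p 0.247, SE 0.05). None of the 31-base words of Fhl2 transcripts (0 of 1894) occurs in transcripts of another gene.

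Fhl3 (ENSMUSG00000032643, chromosome 4, 124700701 to 124708611, plus strand), which encodes an actin-bound member of skeletal muscle, also rose. It was at 2.00, 1.90 and 2.48 CPM in WT and at 6.04, 5.34 and 5.09 CPM in Srrm2+/-, with no overlap. Its log2 fold change was 1.37 (edgeR adjusted p 0.000187, SE 0.14). Of the 31-base words of its transcripts, 12.1% also occur in other genes, so part of its count depends on how shared reads were divided. Gm13898 was the gene with the most such matches.

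Fhl1 (ENSMUSG00000023092, chromosome X, 56731787 to 56793346, plus strand), an FHL gene of striated muscle whose mutations cause X-linked myopathies, was the most abundant of the family in WT. It was at 26.1, 23.6 and 27.4 CPM in WT and at 33.4, 33.2 and 31.3 CPM in Srrm2+/-. Every Srrm2+/- library lay above every WT library, although the groups were close to each other. The log2 fold change was 0.34 (edgeR adjusted p 0.00426, SE 0.06).

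Of the CSRP genes, Csrp1 rose and Csrp2 did not pass the test. Csrp1 (ENSMUSG00000026421, chromosome 1, 135720061 to 135752232, plus strand), which encodes a protein that cross-links actin bundles and is abundant in smooth muscle, was at 30.8, 32.6 and 33.4 CPM in WT. In Srrm2+/- it was at 95.0, 86.3 and 80.03 CPM, so that each Srrm2+/- library held more than any WT library. Its log2 fold change was 1.43 (edgeR adjusted p 1.95e-06, SE 0.07), or 2.70-fold, and it had the lowest p of the 9 members. Csrp2 (ENSMUSG00000020186, chromosome 10, 110919789 to 110939622, plus strand), a paralogue first described in smooth muscle, was at 8.07, 7.87 and 5.30 CPM in WT and at 6.26, 6.55 and 5.15 CPM in Srrm2+/-. The groups overlapped, with the third replicate the lowest in each. Its log2 fold change of -0.24 (edgeR adjusted p 0.345, SE 0.17) did not pass the threshold.

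Among the 4 PDLIM members, Pdlim7 showed the largest rise. Pdlim7 (ENSMUSG00000021493, chromosome 13, 55495795 to 55513676, minus strand) encodes Enigma, an actin-associated scaffold with several LIM domains. It was at 16.9, 13.5 and 14.3 CPM in WT and at 43.8, 38.7 and 41.4 CPM in Srrm2+/-, with a wide gap between the groups. The log2 fold change was 1.47 (edgeR adjusted p 6.57e-06, SE 0.09), or 2.77-fold.

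Pdlim5 (ENSMUSG00000028273, chromosome 3, 142239590 to 142395696, minus strand) encodes ENH, the paralogue of Enigma that binds protein kinase C. Its levels were 49.5, 46.3 and 45.0 CPM in WT and 57.9, 61.2 and 58.9 CPM in Srrm2+/-. The groups did not overlap, and the log2 fold change was 0.34 (edgeR adjusted p 0.0011, SE 0.05). The rise of Pdlim5 was called, and whether it differed from that of Pdlim7 was not tested.

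Of the 4 PDLIM members, Pdlim1 did not pass the test and Pdlim4 fell. Pdlim1 (ENSMUSG00000055044, chromosome 19, 40221173 to 40271842, minus strand), which encodes the stress fibre protein CLP36, was at 55.0, 58.7 and 58.5 CPM in WT and at 62.0, 62.0 and 64.2 CPM in Srrm2+/-. The groups did not overlap, but the log2 fold change of 0.13 (edgeR adjusted p 0.0546, SE 0.04) missed the threshold. The adjusted p was 0.0447 with upper quartile scaling and 0.0329 when all libraries of 1 genotype had to reach 1 CPM, so the call of Pdlim1 depends on those choices. Of its 31-base words, 11.8% also occur in other genes, and Gm5864 was the gene with the most such matches.

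Pdlim4 (ENSMUSG00000020388, chromosome 11, 54054928 to 54069014, minus strand), which encodes RIL, an alpha-actinin partner, was the sole member that fell. It was at 1.26, 1.26 and 1.31 CPM in WT and at 0.694, 0.464 and 0.778 CPM in Srrm2+/-. The WT libraries lay close together and all Srrm2+/- libraries lay below them. The log2 fold change was -0.99 (edgeR adjusted p 0.0128, SE 0.23), from 70 to 73 counts per WT library and 32 to 48 counts per Srrm2+/- library.

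**Figure D2:**
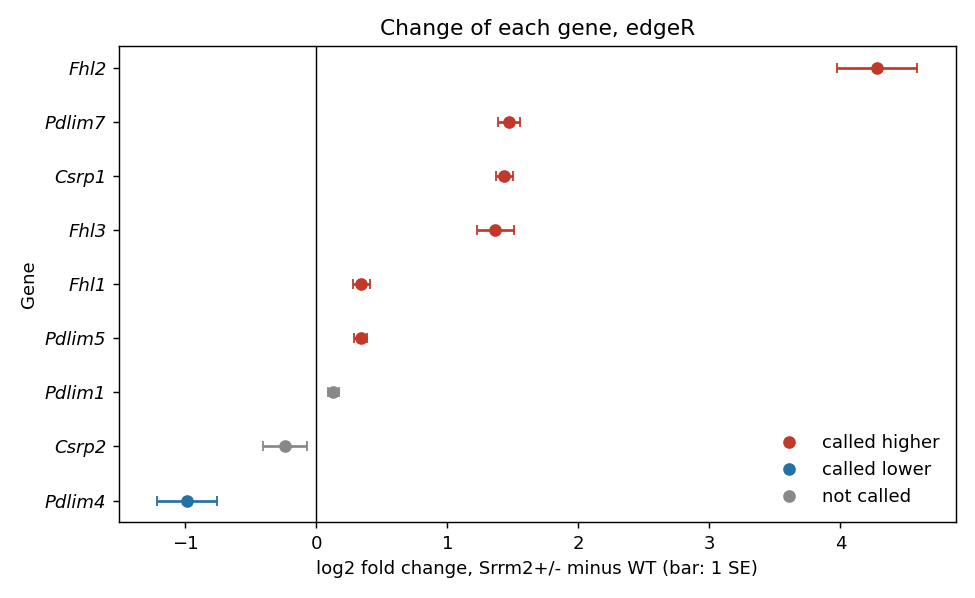
The log2 fold change of each member (Srrm2+/- minus WT, edgeR) with a bar of 1 SE, ordered by size and coloured by call. Fhl2 stands apart at 4.28, Pdlim7, Csrp1 and Fhl3 lie together between 1.37 and 1.47, and Pdlim4 is the single called fall at -0.99.

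The composition of each family was compared within libraries, since a ratio of genes in a library does not depend on library scaling. Levels were divided by the length of the gene's merged exons and are given as CPM per kilobase. Csrp1 made up 83.5 ± 3.50% of the summed Csrp1 and Csrp2 level in WT and 94.2 ± 0.499% in Srrm2+/- libraries (SD, n = 3 each). Fhl2 made up 0.982 ± 0.431% of the FHL level in WT and 11.9 ± 1.86% in Srrm2+/- libraries (SD, n = 3 each), while Fhl1 moved from 83.8 ± 1.23% to 64.3 ± 1.44% (SD, n = 3 each). Pdlim7 made up 15.5 ± 1.65% of the level of the 4 PDLIM members in WT and 31.1 ± 1.51% in Srrm2+/- libraries (SD, n = 3 each), and Pdlim1 moved from 55.2 ± 2.54% to 43.6 ± 0.776%. None of these shares overlapped between the genotypes. Without division by length, Fhl2 made up 0.551% in WT and 7.495% in Srrm2+/-, a difference of 6.94 percentage points in place of 10.9. For the shares of Csrp1, Fhl2 and Pdlim7, the two-sided exact permutation p was 0.1, below which a design of 3 against 3 libraries cannot go.

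**Figure D3:**
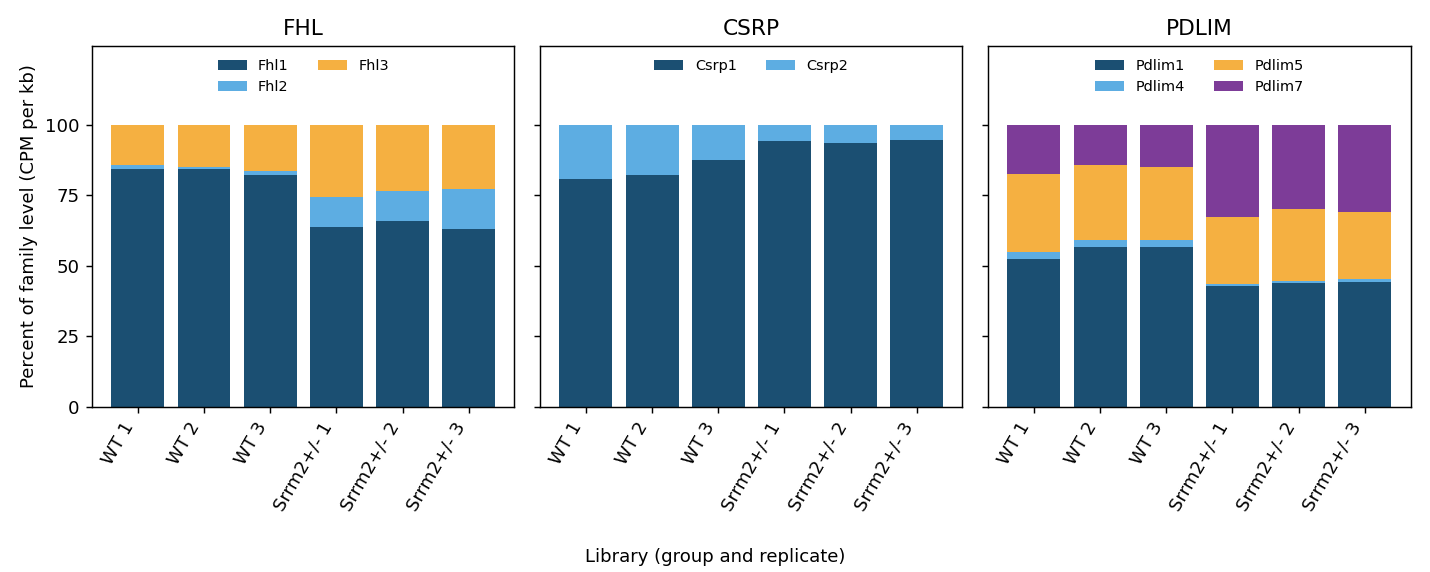
The percent of the family's summed level (CPM per kilobase of exon) held by each gene, in each of the 6 libraries. Fhl2 and Fhl3 in the FHL family, Csrp1 in the CSRP family and Pdlim7 in the PDLIM family take a larger percent in all 3 Srrm2+/- libraries.

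The family totals were higher in every Srrm2+/- library than in any WT library. The summed CSRP level was 19.8 ± 0.483 CPM per kilobase in WT and 47.3 ± 4.08 in Srrm2+/-, a ratio of 2.39 (SD, n = 3 each). The FHL level was 8.27 ± 0.725 and 13.7 ± 0.416 CPM per kilobase, a ratio of 1.65. The PDLIM level was 19.8 ± 0.199 and 27.4 ± 0.466 CPM per kilobase, a ratio of 1.385. Each had an exact permutation p of 0.1 (two-sided), again the smallest possible with 3 against 3 libraries.

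By level per kilobase, the order in WT was Csrp1 (16.5), Pdlim1 (10.9), Fhl1 (6.92), Pdlim5 (5.29), Csrp2 (3.26), Pdlim7 (3.07), Fhl3 (1.27), Pdlim4 (0.499) and Fhl2 (0.0831 CPM per kilobase). Csrp2 and Pdlim7, neighbours in this order, overlapped between libraries. In Srrm2+/- cells the order was Csrp1 (44.5), Pdlim1 (11.9), Fhl1 (8.79), Pdlim7 (8.52), Pdlim5 (6.68), Fhl3 (3.26), Csrp2 (2.76), Fhl2 (1.62) and Pdlim4 (0.252 CPM per kilobase). Here Fhl1 and Pdlim7 overlapped, and Fhl3 (lowest 3.024) and Csrp2 (highest 3.019) nearly did. With the longest transcript as the length, an alternative chosen after seeing the data, Pdlim1 (20.2) stood above Csrp1 (17.7 CPM per kilobase) in WT. By that length Pdlim5 (11.8), Fhl1 (11.8) and Pdlim7 (11.6 CPM per kilobase) overlapped in Srrm2+/- cells, and Csrp2 (4.33) stood above Fhl3 (3.30). In WT, Pdlim5 (9.353) and Fhl1 (9.285 CPM per kilobase) overlapped by that length. The places of Csrp1 and Pdlim1 in WT and of Fhl1 against Pdlim5 in both genotypes therefore depend on the length used. So do those of Pdlim7 against Pdlim5 and of Fhl3 against Csrp2 in Srrm2+/-. Fhl2 was below Pdlim4 in WT and above it in Srrm2+/- by either length.

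The remaining genes of these families and the other LIM-domain genes of the cytoskeleton were compared from lists (given with each count). For this list and those that follow, the shares of all tested genes called were 13.6% higher and 11.7% lower. The lists too were chosen with earlier results of these data known. Of the 4 tested of 6 remaining FHL, CSRP and PDLIM genes, 2 were higher and 0 lower, with a median log2 fold change of 0.91. Pdlim3, which encodes an alpha-actinin-associated LIM protein of muscle, had 10, 8 and 14 counts in WT and 83, 72 and 58 in Srrm2+/- (log2 fold change 2.45, edgeR adjusted p 0.000375, SE 0.29). Pdlim2 rose from 1.75 to 6.95 CPM on average (log2 fold change 1.99, edgeR adjusted p 1.05e-05, SE 0.13). Fhl4 and Ldb3 were at -0.50 (SE 0.21) and -0.17 (SE 0.11) and did not pass the test, although Fhl4 was called lower without WT replicate 1 (-0.66, adjusted p 0.0442), which gave 2 higher and 1 lower. Fhl5 had at most 1 count in any library, and Csrp3, the muscle LIM protein gene, had 4 counts in WT replicate 1 and 0 in the other libraries, so no change of either was detectable at this depth.

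In the zyxin family, whose proteins shuttle between focal adhesions, cell junctions and the nucleus, 6 of 7 genes were called higher and 0 lower (median log2 fold change 0.67). Zyx was at 2.43 (edgeR adjusted p 0.00788, SE 0.51), with 16, 18 and 73 counts in WT and 199 to 286 in Srrm2+/-, and it became 3.54 without WT replicate 3. Lpp rose from 14.8 to 51.9 CPM (log2 fold change 1.81, edgeR adjusted p 1.09e-06, SE 0.07). Ajuba (0.71, SE 0.05) and Trip6 (0.67, SE 0.05) rose less. The call of Wtip (0.19, SE 0.05) was lost without WT replicate 3 (adjusted p 0.0607) and without Srrm2+/- replicate 1 (adjusted p 0.0559). Fblim1 was at -0.17 (edgeR adjusted p 0.191, SE 0.08) and did not pass the test. Without Srrm2+/- replicate 1 it was called lower (-0.27, edgeR adjusted p 0.0144), which gave 5 higher and 1 lower.

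Of the 4 tested paxillin and PINCH genes, 2 were higher and 0 lower (median 0.28). Tgfb1i1, the paxillin relative Hic-5, rose by 1.86 (log2, edgeR adjusted p 0.000436, SE 0.23). Pxn, which encodes the focal adhesion adaptor paxillin, was at 0.28 (edgeR adjusted p 0.0176, SE 0.07). Without WT replicate 2, Srrm2+/- replicate 1 or Srrm2+/- replicate 3 the adjusted p of Pxn was 0.0649, 0.0573 or 0.0616, which left 1 called gene of this list. Of the 3 CRIP genes, short LIM proteins related to CSRP, Crip2 was called higher (0.49, SE 0.11).

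The 16 tested genes of other actin-binding LIM proteins went in both directions, with 6 higher, 3 lower and a median log2 fold change of 0.12. Limch1, whose product binds non-muscle myosin, rose by 2.76 (edgeR adjusted p 2.49e-05, SE 0.20). Tes, which encodes the focal adhesion protein testin, rose by 1.32 (edgeR adjusted p 1.33e-05, SE 0.09). Mical2 was called higher (0.69, SE 0.18), but not without WT replicate 1, Srrm2+/- replicate 2 or Srrm2+/- replicate 3 (adjusted p 0.0637, 0.0804 and 0.0559). Ablim3 (1.05, edgeR adjusted p 0.0475, SE 0.33) was not called by DESeq2 or limma voom, with the replicate block (adjusted p 0.0516), or without any 1 library other than Srrm2+/- replicate 2. With the block the list had 5 higher and 4 lower, the added fall being Mical3 (-1.12, edgeR adjusted p 0.0379). In the main fit Mical3 was at -1.05 (edgeR adjusted p 0.0544, SE 0.34) without a call. Among other alternatives, it was called lower by DESeq2 (adjusted p 0.00262) and limma voom (adjusted p 0.0388). Among the falls were Mical1 (-0.62, SE 0.05), an actin-oxidising enzyme, and Lima1 (-0.28, SE 0.07). Without WT replicate 2 or Srrm2+/- replicate 1, Lima1 had an adjusted p of 0.06 or 0.0552. In the nuclear LIM-only and LIM-homeobox list, 8 of 16 genes were tested and 1, Lmo4, was called higher (1.05, SE 0.08).

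**Figure D4:**
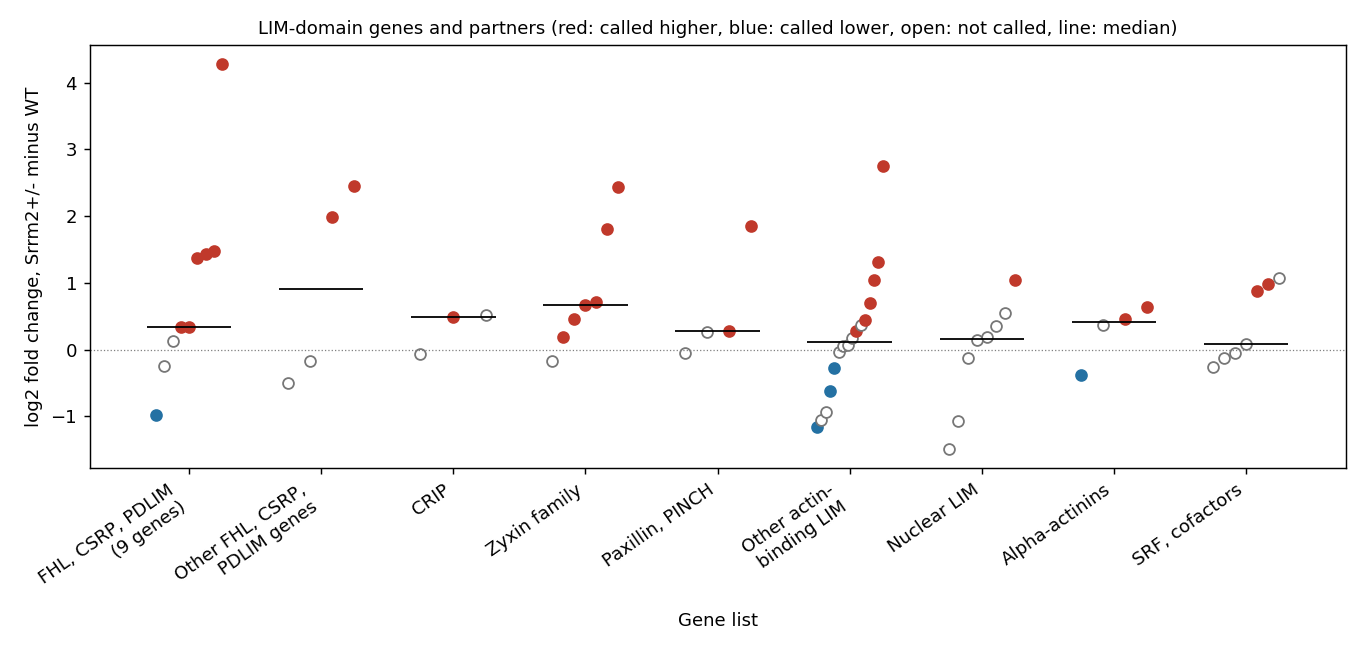
The log2 fold change (Srrm2+/- minus WT) of every tested gene of each list, with filled points for called genes and a line at the median. The members and the zyxin family hold mainly filled points above 0, the other actin-binding LIM genes spread to both sides, and the nuclear LIM genes hold a single filled point.

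Partners of these proteins were measured in the same libraries. Of the 4 genes for alpha-actinin, the actin cross-linker that CSRP and PDLIM proteins bind, Actn4 rose from 263 to 409 CPM (log2 fold change 0.63, edgeR adjusted p 7.65e-06, SE 0.04) and Actn1 rose from 85.8 to 118 CPM (0.46, edgeR adjusted p 0.00117, SE 0.07). Actn3 was called lower (-0.38, SE 0.06), and Actn2 was at 0.36 (SE 0.21) without a call. Of the 7 genes for SRF and its cofactors, 2 were called higher and 0 lower (median 0.09). These were Srf (0.99, edgeR adjusted p 7.09e-06, SE 0.06) and Elk3 (0.89, edgeR adjusted p 0.00153, SE 0.13). The study names Srf from these libraries, so its rise here is not an independent finding. In its single-cell data the study reported no detectable change of Srf, while SRF target genes were mostly enriched in a single cell cluster. A part of SRF in the changes of the members was not tested.

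In the promoter windows, 8 of the 9 members had at least 1 RefSeq window, 12 windows in all, and the window of Csrp2 was not analysed here. A CArG box was found in 2 of the 8 members, Fhl2 and Fhl1, against 1.81% of 27025 genes. Fhl2 held one in each of its 2 windows, 86 and 21 bases before the start, and Fhl1 held one 92 bases before 1 of its starts. Csrp1, Fhl3 and Pdlim7, with log2 fold changes of 1.43, 1.37 and 1.47, held none in these windows, nor did Pdlim1, Pdlim4 and Pdlim5. With 1 mismatch allowed in the central 6 bases, 3 members held a match (Fhl1, Fhl2 and Pdlim4), against 11.3% of genes. The GC box occurred in 7 of the 8 members (all but Fhl1) and in 38.2% of genes. The 5 copies upstream of Fhl3 are printed above, and the last 2 of them share 1 base. The TEAD motif CATTCC occurred in 0 of the 8 members (16.6% of genes) and the AP-1 motif TGANTCA in 0 (8.97% of genes). The shares of genes are over all 27025 with a window, whether or not they passed the filter on low counts, which all members did. These matches are letters in a window, and binding was not measured. Which start each gene uses was not analysed here.

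The nearest tested protein-coding gene on each side of each member gave 18 neighbours. Of these, 6 were called higher, 1 lower and 11 neither (median log2 fold change 0.19). Over all tested genes, 13.6% were called higher and 11.7% lower. Dbn1, the drebrin gene 7.68 kb from Pdlim7, rose by 1.28 (edgeR adjusted p 1.63e-06, SE 0.06), and Phlda3, 13.9 kb from Csrp1, rose by 0.73 (edgeR adjusted p 0.0019, SE 0.12). Slc22a21, 74.59 kb from Pdlim4, the member that fell, had the largest rise of the 18 (1.29, edgeR adjusted p 0.0111, SE 0.29), from 0.234 to 0.574 CPM. Gbp7, 134.65 kb from Pdlim5, rose by 1.15 (edgeR adjusted p 0.0195, SE 0.29). The neighbours of Fhl3, Utp11 and Sf3a3, were at 0.04 (SE 0.05) and 0.06 (SE 0.04). AI597479, 7.13 kb from Fhl2, was at -0.12 (SE 0.04), and Nck2, on the other side at a distance of 247.59 kb, rose by 0.26 (SE 0.06). The neighbours named here were chosen after their values were seen.

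Markers of other cell types were measured in the same libraries. Of the 7 tested of 8 fibroblast markers, 5 were called higher. Thy1, at 1.93 CPM on average in WT and 1.19 CPM in Srrm2+/- (log2 fold change -0.70, SE 0.27), did not pass the edgeR test. Pdgfrb (0.23, SE 0.34) did not pass it either. The sum of all 8 was 3.51 to 3.72 CPM in WT and 7.33 to 11.1 CPM in Srrm2+/-. Dcn was at 0 counts in every WT library and at 2 to 4 counts in Srrm2+/-. Of the 5 tested of 6 smooth muscle markers, 4 were called higher (median log2 fold change 0.62), and Synpo2 (-0.60, SE 0.61) did not pass the edgeR test. The sum of all 6 was 21.1 to 22.4 CPM in WT and 34.2 to 38.4 CPM in Srrm2+/-. Cnn1, the calponin gene, rose from 0.739 to 6.53 CPM, and Myh11, which defines mature smooth muscle, had 0 to 13 counts per library and was not tested. Of 9 striated muscle markers, 3 were tested and did not pass the edgeR test (log2 fold changes of -0.19 to 0.20). The sum of all 9 was 99.3 to 107.6 CPM in WT and 83.1 to 95.0 CPM in Srrm2+/-, and Myod1 and Ckm were at 0 counts in all 6 libraries. Of 5 endothelial markers, 3 were tested, with Kdr called higher and Pecam1 and Tek lower. The sum of all 5 was 93.1 to 96.9 CPM in WT and 68.8 to 73.8 CPM in Srrm2+/-. Most of it was Pecam1, at 88.8 CPM on average in WT and 65.8 CPM in Srrm2+/-. Of 6 primitive endoderm markers, 4 were tested and Dab2 was called higher. The sum of all 6 was 1.90 to 2.16 CPM in WT and 2.24 to 3.28 CPM in Srrm2+/-. The part of such cells in the levels of the 9 members was not tested.

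The genes whose levels ran most closely with the mean standardised level of the 9 members over the 6 libraries were Rbms1, Ocln, Tpm1, Rhbdf1 and Zfp365, with Pearson r of 0.999 for each. This is a description over 6 points that share 2 genotypes, and 926 of the 12061 genes compared had an r above 0.95.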

How the data were processed

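Total RNA libraries were made with a stranded kit from 600 ng of RNA with spike-ins, which were not used here, and were sequenced as paired 75 bp reads. The deposited table holds estimated counts per gene, which the authors made with Kallisto 0.46.1. The strand setting of the counting is not given in the sources used here. The estimated counts were rounded and tested with edgeR 4.0.16 in R 4.3.3 (quasi-likelihood test, TMM scaling, minimum count 10 and minimum total count 15, genotype as the only term, 4 residual degrees of freedom), with Benjamini-Hochberg adjustment over all 18905 tested genes. CPM values use the same scaling, and levels per kilobase use the union of annotated exons. DESeq2 1.42.0, limma 3.58.1 (voom), other scalings, filters and call rules, a replicate block and each library left out in turn were the alternatives. The 3 libraries of a genotype came from batches frozen at different passages, which the study treats as biological replicates. The scripts were tested on simulated data.

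The 9 members and all gene lists were chosen with earlier results of these data known. The rule for named genes took the trapped gene, the members and, per list, up to 4 called genes with the largest change in each direction. Genes named without a call, and the neighbours, were chosen after their values were seen. A gene that the rule would name is not reported here. Gene positions are from a GENCODE annotation on GRCm38 and promoters from RefSeq on GRCm38.p6, without chromosome 18. Intervals of the estimated counts were not computed. Each edgeR standard error given is the absolute log2 fold change divided by the square root of edgeR's F statistic. It rests on a spread between libraries that edgeR moderates over genes.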

Additional observations from a re-analysis of the deposited data

How the results depend on the processing

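For the 9 members, no alternative turned a direction, and the calls of Fhl1, Fhl2, Fhl3, Csrp1, Pdlim4, Pdlim5 and Pdlim7 were kept under all 14 alternative fits. Pdlim1 gained a call with upper quartile scaling (0.13, adjusted p 0.0447) and when all libraries of 1 genotype had to reach 1 CPM (0.13, adjusted p 0.0329). The cause was not tested. Csrp2 ranged from -0.41 to -0.14, with adjusted p from 0.0519 to 0.657. Over all genes, 4781 were called, against 3515 to 4122 with 1 library left out and 4704 with DESeq2.

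With a log2 fold change of at least 1 required, the calls were 1153 over all genes, 4 members higher and 0 lower, 0 CRIP genes, 2 zyxin family genes, 1 paxillin or PINCH gene, 4 other actin-binding LIM genes, 0 alpha-actinin genes, 0 of SRF and its cofactors and 3 neighbours. At an adjusted p under 0.01 they were 2779 over all genes, 6 members higher and 0 lower, 0 CRIP genes, 1 paxillin or PINCH gene and 4 neighbours. These rules are stricter by construction. The filter of at least 1 CPM left 1 call among the remaining FHL, CSRP and PDLIM genes, with 3 tested. Limma voom gave 2 calls in the nuclear LIM list. With 1 library left out, the paxillin and PINCH list gave 1 to 2 calls and the nuclear LIM list 1 to 2, the latter without Srrm2+/- replicate 1 or 3.

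Deviations of same-numbered libraries had correlations of -0.0337 to -0.0285, so no strong shared effect of the replicate number was seen. These values do not settle whether the libraries were paired. With the replicate block, 4166 genes were called, 6 members were higher and 1 lower, and Fhl2 was at 4.31. Low counts limit Fhl2 in WT and Pdlim4 in Srrm2+/-.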
